A study of Mus musculus with 8 samples.

Results

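Heat shock proteins are chaperones that bind unfolded proteins and help them fold. The 10 genes described here encode such proteins or, for Hsf1, their regulator: Hspa1a, Hspa1b, Hsph1, Hspa8, Hsp90aa1, Hsp90ab1, Hspd1, Hspe1, Dnajb1 and Hsf1. They were taken by name, with every probe set (a group of array probes read as 1 value) that the array's annotation assigns to 1 of them alone and that was not at 0 on all arrays. The annotation used here listed 20 such probe sets, of which 18 were measured and 2, both of Hsp90aa1, were at 0. The 18 covered 8 of the 10 genes, out of 24404 measured probe sets and 10720 measured genes, and Hsp90ab1 and Hsf1 were not analysed here. The set was selected on the measured difference between Msi2 knockout and control arrays, so the differences of its members are given as a description and without a test.

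HSP70 proteins bind exposed hydrophobic stretches of a client and let go of it in a cycle driven by ATP. J proteins such as Dnajb1 start that cycle and HSP110 proteins such as Hsph1 reset it by exchanging the nucleotide. HSP90 acts later on a narrower set of clients such as kinases and steroid receptors, and HSP60 with HSP10 forms the folding chamber of mitochondria. When unfolded protein builds up, the factor HSF1 binds heat shock elements, inverted repeats of the letters GAA, and raises the inducible members, above all Hspa1a and Hspa1b. Hspa8 and the HSP90 genes are also read in unstressed cells.

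The arrays held RNA of LSK cells, the lineage-negative Sca-1+ Kit+ cells of bone marrow that include blood stem cells and early progenitors. The controls were 4 wild-type mice. The other 4 arrays held cells lacking Msi2, the gene of the RNA-binding protein Musashi-2, through a conditional knockout (KO). The Cre driver, the means and time of deletion, and the age and sex of the mice are not given in the sources used here. Values are log2 signals normalized by the authors, with medians of 7.03 to 7.08 per array, and having 4 arrays in each group is what limits their precision.

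Msi2 itself (1421230_a_at) read 11.40 to 11.65 in controls and 11.36, 11.20, 8.73 and 10.38 on Msi2 KO 1 to Msi2 KO 4, so signal remained and was unequal across the KO arrays. Whether this probe set covers the deleted part of the gene was not examined, so its signal does not measure the extent of deletion. Xist, which female cells transcribe from the silenced X, read 4.79 to 5.55 on 3 arrays (control 1, Msi2 KO 1, Msi2 KO 2) and 11.92 to 12.51 on the other 5. The Y-linked gene Eif2s3y read 8.12, 8.14 and 8.05 on those 3 arrays and 3.36 to 3.62 on the other 5. By these genes the 3 arrays held male and the other 5 female cells, and the groups were not balanced for sex. Msi2 KO 3 stood apart on the first principal component, at 50.5, while the other arrays lay between -26.7 and 11.0. Control probe sets at the 3 prime and 5 prime ends of a transcript bear on RNA quality. For Gapdh the 3 prime minus 5 prime signal was 1.35 on Msi2 KO 4 and 1.64 to 1.85 elsewhere. For actin it was 0.29 on Msi2 KO 3 and -0.12 to 0.13 elsewhere. The part of RNA quality in the differences of the set was not tested. The LSK marker Kit read 8.39 to 9.16 in controls and 8.82 to 9.19 in KO. Ly6a, which encodes Sca-1, was not analysed here. The lymphocyte markers Cd3e, Cd4, Cd8a, Ms4a1 and Cd79a were listed at 0. The step that set probe sets to 0 on every array is not stated, so a gene listed at 0 is not shown to be silent.

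The promoters of Hspa1a and Hspa1b are printed because they are nearly the same sequence, and because they hold letters of a heat shock element. Both genes are on the minus strand of chromosome 17, and the 250 bases before their starts, at chr17:34972157-34972406 for Hspa1a and chr17:34959239-34959488 for Hspa1b, were 98.8% identical. They differ by 3 substitutions, C44T, T47C and T249G, counted from the first printed base with the Hspa1a base first. Sequences and positions are from RefSeq on GRCm38.p6, and the capitals mark a pair of units, GAANNTTC.
Hspa1a: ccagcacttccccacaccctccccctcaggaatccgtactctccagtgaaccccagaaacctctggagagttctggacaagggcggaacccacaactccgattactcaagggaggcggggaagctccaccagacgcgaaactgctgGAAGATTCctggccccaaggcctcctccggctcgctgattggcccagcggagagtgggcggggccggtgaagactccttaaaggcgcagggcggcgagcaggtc
Hspa1b: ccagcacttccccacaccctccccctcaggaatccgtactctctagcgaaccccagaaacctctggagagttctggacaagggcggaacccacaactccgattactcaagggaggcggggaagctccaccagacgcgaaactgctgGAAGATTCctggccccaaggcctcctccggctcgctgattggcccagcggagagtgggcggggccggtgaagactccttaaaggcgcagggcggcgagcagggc

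A run of 3 units, searched as the pair GAANNTTC followed after any 2 bases by a further GAA, or as the reverse complement of that run so that both strands are covered, was found for Hspe1, Hspd1 and Hsph1. It is shown for the stretch shared by the head-to-head pair Hspe1 and Hspd1, where overlapping matches make a longer run (chr1:55088053-55088082, plus strand), and for Hsph1 (chr5:149636280-149636308, minus strand). Capitals mark the units.
Hspe1: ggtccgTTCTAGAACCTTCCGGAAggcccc
Hsph1: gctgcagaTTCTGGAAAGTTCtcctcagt
The Hspe1 run begins 89 bases before its start. Hsph1 has 2 windows, each with its own start of the gene, and the run begins at base 16 after 1 start and at base 37 after the other. Of 32851 promoter windows of 300 bases in the table (250 bases before and 50 after each start), 0.603% held 3 units and 15.1% held at least the pair GAANNTTC or TTCNNGAA. Counted by gene, 0.662% of 27025 genes with a window held 3 units and 17% held the pair. Of the 6 genes of the set with a window, 3 held 3 units and 5 held the pair. Hspa1a and Hspa1b held the exact pair alone, and Dnajb1 held neither in its 2 windows. Only exact units were searched, so units with a changed letter were not counted and the counts do not rank the promoters. These matches describe letters and no binding was measured.

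The inducible HSP70 genes had the widest differences of the set, and the arrays within each group were far apart. Hspa1b (1452318_a_at, its brightest probe set) read 3.98, 4.04, 2.82 and 7.58 on control 1 to control 4, and 9.80, 9.77, 7.88 and 6.53 on Msi2 KO 1 to Msi2 KO 4. Msi2 KO 1 to Msi2 KO 3 lay above every control, control 4 lay above Msi2 KO 4, and the groups overlapped. The means were 4.60 ± 2.06 and 8.50 ± 1.59 (SD, n = 4 each), a difference of 3.89 ± 1.30 (SE). Controls 1 to 3 read near the level of a silent gene, for which the Y-linked gene Eif2s3y gave 3.36 to 3.62 on the arrays with high Xist, so no fold is given for either HSP70 gene.

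The other probe sets of the HSP70 pair gave smaller differences, with the KO arrays in the same order. Hspa1a (1452388_at) read 3.83, 3.74, 3.62 and 5.77 in controls and 8.04, 7.40, 5.38 and 4.22 in KO, in array order. Only Msi2 KO 1 and Msi2 KO 2 passed the highest control, and the difference of the means was 2.02 ± 1.02 (SE). The Hspa1b probe sets 1427127_x_at and 1427126_at differed by 2.33 ± 0.88 and 2.08 ± 0.79 (SE), with Msi2 KO 1 at 7.72 and 7.24 and Msi2 KO 4 at 4.24 and 3.91. A probe set named for one of these near-identical genes may take RNA of the other, and the 4 probe sets are not separate measurements of 2 genes.

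Hsph1, the HSP110 exchange factor of HSP70, was bright on every array and followed the same arrays. Its brighter probe set 1425993_a_at read 10.82, 11.07, 10.53 and 11.19 in controls and 12.18, 11.88, 11.67 and 10.95 in KO, in array order. Msi2 KO 1 to Msi2 KO 3 lay above all controls and Msi2 KO 4 lay among them. The means, 10.90 ± 0.30 and 11.67 ± 0.52 (SD, n = 4 each), differed by 0.77 ± 0.30 (SE), a 1.70-fold higher signal in KO. The second probe set, 1423566_a_at, differed by 0.69 ± 0.29 (SE), or 1.62-fold.

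**Figure D1:**
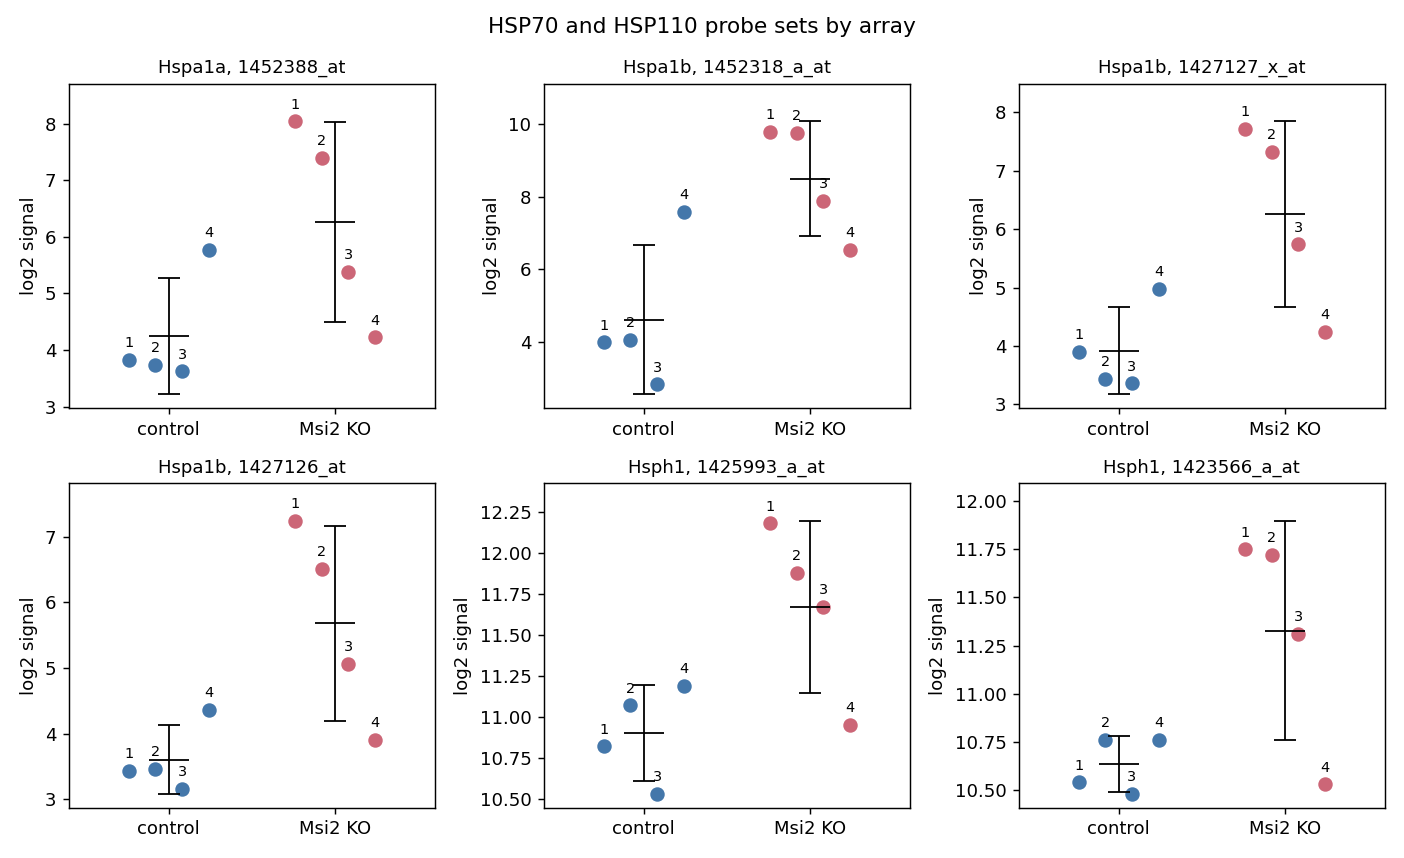
Log2 signal (y axis) of the 6 probe sets of Hspa1a, Hspa1b and Hsph1 on the 4 control and 4 Msi2 KO arrays (points, with the array number; bars are the mean and SD; each panel has its own y axis). Msi2 KO 1 and Msi2 KO 2 lie above all controls on all 6 probe sets, Msi2 KO 3 on 5 and Msi2 KO 4 on 0.

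The KO arrays kept 1 order across these probe sets, while the controls did not. On all 6 the KO arrays stood, from high to low, as Msi2 KO 1, Msi2 KO 2, Msi2 KO 3 and Msi2 KO 4. Among the controls, control 3 was the lowest on all 6 and control 4 the highest on 5. The KO arrays with the highest HSP70 signal, Msi2 KO 1 and Msi2 KO 2, were also those with the highest signal on the Msi2 probe set (11.36 and 11.20). The order did not hold for the other KO arrays: Msi2 KO 3 lay above Msi2 KO 4 on all 6 probe sets but read lower for Msi2 (8.73 against 10.38). Msi2 KO 1 and Msi2 KO 2 were also the KO arrays with low Xist. Control 1, with low Xist as well, read 3.98 on the brightest Hspa1b probe set, between control 3 (2.82) and control 2 (4.04). Among the arrays with low Xist alone (1 control and 2 KO) Hspa1b differed by 5.80, and among those with high Xist (3 controls and 2 KO) by 2.39. The corresponding values of Hsph1 were 1.21 and 0.38, and those of Hspa1a 3.89 and 0.42. The part of sex or of the extent of deletion in these differences was not tested.

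Dnajb1, the J protein that activates HSP70 and an HSF1 target in other cells, differed less. Its brighter probe set 1416755_at read 11.50, 11.89, 11.82 and 11.89 in controls and 12.18, 11.93, 11.89 and 11.76 in KO, in array order. Msi2 KO 1 was the highest array and control 1 the lowest, and the groups overlapped. The difference was 0.16 ± 0.13 (SE), or 1.12-fold, and the dimmer probe set 1416756_at differed by 0.34 ± 0.28 (SE). On the brighter one the difference was 0.07 without control 1, 0.08 without Msi2 KO 1 and 0.06 with array weights. It was -0.05 among the arrays with high Xist and 0.56 among those with low Xist.

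Hspa8, the HSC70 protein that serves unstressed cells, differed little between the groups. Its brightest probe set 1455789_x_at read 13.08, 13.03, 12.97 and 13.11 in controls and 13.09, 13.06, 12.91 and 12.89 in KO, in array order. The difference was -0.06 ± 0.06 (SE), 1.04-fold lower, and the groups overlapped. The other probe sets of Hspa8 gave differences of 0.02 ± 0.07 (1420622_a_at), 0.10 ± 0.07 (1420623_x_at) and 0.24 ± 0.18 (1431182_at, SE), so the sign turns with the probe set. None of its 4 probe sets separated the groups.

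Hsp90aa1, the stress-responsive HSP90 of the cytosol, read 12.11, 12.05, 11.82 and 11.95 in controls and 12.24, 11.93, 12.28 and 12.13 in KO on 1426645_at, in array order. On this probe set Msi2 KO 2 lay among the controls while the other KO arrays lay above them, by little. The difference was 0.16 ± 0.10 (SE), or 1.12-fold, with 0.26 among the arrays with high Xist and -0.03 among those with low Xist. On 1437497_a_at the controls lay between 11.46 and 11.66, Msi2 KO 1 to Msi2 KO 3 between 11.97 and 11.98, and Msi2 KO 4 at 11.60 (difference 0.34 ± 0.11, SE). On 1438902_a_at, with a difference of 0.15 ± 0.09 (SE), Msi2 KO 4 was the lowest of all arrays at 11.19.

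The mitochondrial pair did not follow the HSP70 genes. Hspe1, the HSP10 lid of the folding chamber, read 12.27, 12.12, 12.16 and 12.19 in controls and 12.40, 12.31, 12.58 and 12.30 in KO on 1450668_s_at, in array order. All 4 KO arrays lay above all controls, with Msi2 KO 3 the highest, and the difference was 0.21 ± 0.07 (SE), or 1.16-fold. The groups were apart on 1422579_at too, at 10.20 to 10.46 in controls and 10.48 to 11.07 in KO, with a difference of 0.42 ± 0.14 (SE), or 1.34-fold. The difference on 1450668_s_at was 0.28 among the arrays with high Xist and 0.08 among those with low Xist.

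Hspd1, the HSP60 subunit whose gene lies head to head with Hspe1, read 12.15, 12.19, 12.13 and 12.11 in controls and 12.31, 12.06, 12.47 and 12.11 in KO (1426351_at), in array order. Msi2 KO 3 was the highest array and Msi2 KO 2 the lowest, so the groups overlapped, with a difference of 0.09 ± 0.10 (SE). Without Msi2 KO 3 the difference was 0.02 for Hspd1 and 0.15 for Hspe1, and without Msi2 KO 2 it was 0.16 for Hspd1.

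**Figure D2:**
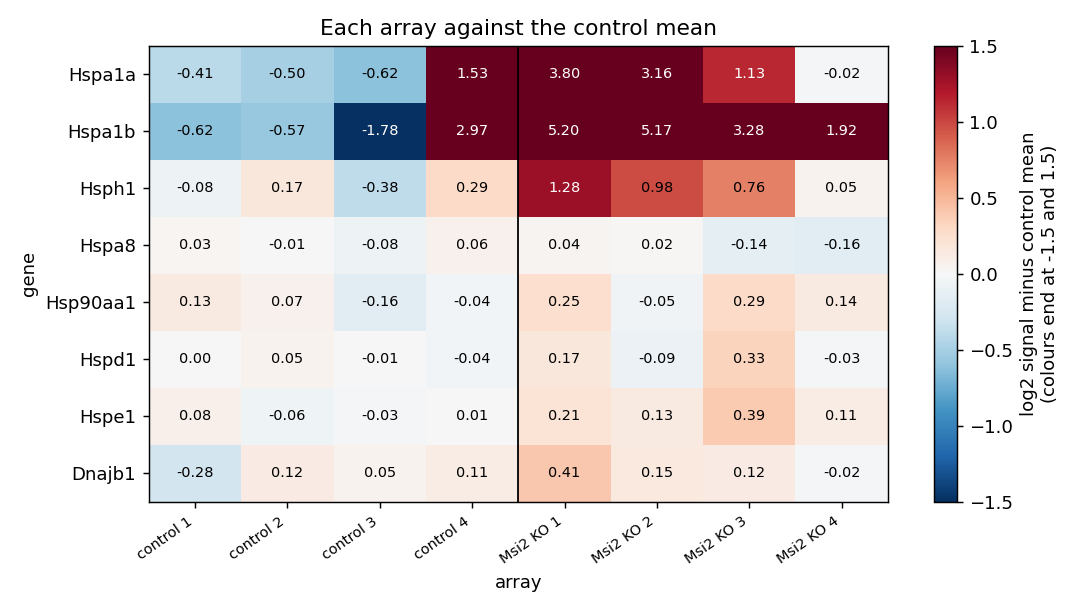
Log2 signal of each array (columns) minus the control mean, for the brightest probe set of the 8 measured genes (rows); numbers give the value and colours end at -1.5 and 1.5. Hspa1a, Hspa1b and Hsph1 are highest on Msi2 KO 1 (3.80, 5.20 and 1.28), while Hspd1 and Hspe1 are highest on Msi2 KO 3 (0.33 and 0.39).

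Over the set, 7 of 8 genes and 17 of 18 probe sets had a higher mean in KO, where 50.4% of all genes and 50.1% of all probe sets did. The median difference was 0.19 over the 8 genes and 0.29 over the 18 probe sets, beside medians of 0.002 and 0.001 over all genes and all probe sets tested. All KO arrays lay above all controls for 1 of the 8 genes and 2 of the 18 probe sets, both of Hspe1, and for 3.63% of all genes and 3.12% of all probe sets. A difference of at least 1 was seen for 2 of the 8 genes, Hspa1a and Hspa1b, and for 0.718% of all genes. The members were chosen with this contrast known, and nothing is read from these shares. In limma's fit 0 of 24404 probe sets and 0 of 10720 genes passed an adjusted p of 0.05 (0% of each), and 9.72% and 11.4% had an unadjusted p under 0.05.

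**Figure D3:**
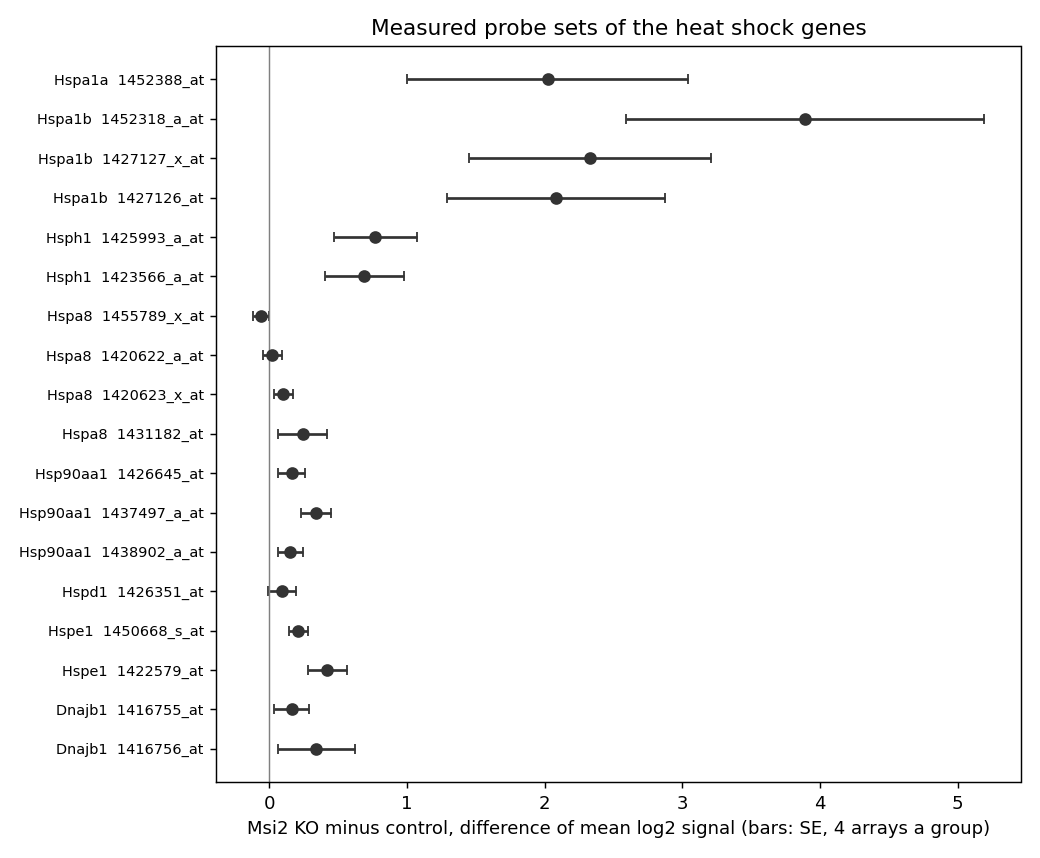
Difference of mean log2 signal, Msi2 KO minus control (x axis), for the 18 measured probe sets; points are the differences and bars the SE of 4 arrays a group. The 4 HSP70 probe sets lie between 2.02 and 3.89 with wide errors, and those of Hspa8 lie between -0.06 and 0.24.

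The spread within groups was larger in KO for 6 of the 8 genes, beside 61.5% of all genes. For Hsph1 the SD was 0.30 in controls and 0.52 in KO on its brighter probe set and 0.14 and 0.57 on the dimmer one, and for Hspd1 it was 0.04 and 0.19. Hspa1b on 1452318_a_at was the other way round (2.06 and 1.59), with control 4 at 7.58 and the other controls at most 4.04. Its dimmer probe sets had the larger SD in KO (0.75 and 1.59 on 1427127_x_at, 0.53 and 1.49 on 1427126_at). So did Hspa1a (1.02 and 1.77). The spread of the HSP70 pair within the controls alone, from lowest to highest, was larger than the difference between the groups on 2 of 4 probe sets (4.75 against 3.89 on 1452318_a_at, 2.15 against 2.02 on 1452388_at) and smaller on the other two (1.62 against 2.33 on 1427127_x_at, 1.21 against 2.08 on 1427126_at). In RNA of a mixed fraction such as LSK cells, more cells with a transcript and more transcript per cell cannot be told apart.

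The genes around the set were taken from 6 lists of chaperones and heat shock response genes. Of their 114 genes 105 were measured, and 0 passed limma's adjusted p of 0.05. 71 had a higher mean in KO and 34 a lower one, where 50.4% of all genes had a higher mean. All KO arrays lay above all controls for 8 and below for 2, beside 3.63% and 3.48% of all genes. By list, the genes whose groups were apart and higher in KO were Hspb6, Bag2, Pfdn4, Trap1, Grpel1, Htra2, Bcs1l and Hyou1, and those lower were Serpinh1 and Dnajc9. They were singled out after their values were seen.

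Among HSF1 targets and heat shock factors 10 of 16 measured genes had a higher and 6 a lower mean in KO, with a median difference of 0.13 and a smallest adjusted p of 0.253 in limma. Chordc1, an HSP90-binding protein, read 10.30, 10.46, 10.22 and 10.61 in controls and 11.10, 11.09, 10.55 and 10.34 in KO, in array order (0.37 ± 0.21, SE, limma adjusted p 0.512). As for the HSP70 genes, Msi2 KO 1 and Msi2 KO 2 were its highest arrays. Cacybp, a binding protein of calcyclin, differed by 0.31 ± 0.13 (SE, limma adjusted p 0.471) and was highest on Msi2 KO 3.

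Bag3 and Hmox1 were the only genes of that list with a difference of at least 1. They were picked after their values were seen. Bag3, a nucleotide exchange factor of HSP70, read 4.63 to 5.50 in controls and 7.06, 5.64, 6.03 and 5.03 on Msi2 KO 1 to Msi2 KO 4 (1.01, limma adjusted p 0.401). Its controls and Msi2 KO 4 lay near 5, the level read here as near background. Hmox1, the heme oxygenase, read 4.68 to 6.87 in controls and 7.78, 7.80, 5.31 and 8.72 in KO, in array order (1.35, limma adjusted p 0.503), so its highest array was Msi2 KO 4. Hsf2, an HSF1 relative named after its values were seen, read 4.45 to 4.59 in controls and 4.33 to 4.99 in KO, near background by that level. Hspb1, the HSP27 gene, was listed at 0.

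The HSP70 partners and J proteins were evenly split, with 13 of 26 higher and 13 lower and a median difference of 0.01 (smallest limma adjusted p 0.363). Stip1, which bridges HSP70 and HSP90, read 9.35 to 9.92 in controls and 10.29, 10.42, 10.18 and 9.54 in KO, in array order (0.54 ± 0.24, SE, limma adjusted p 0.411). Like Hsph1 it left Msi2 KO 4 among the controls. Hspa12b, a distant HSP70 relative, read 8.17 to 8.54 in controls and 8.37, 7.47, 6.42 and 6.92 in KO (-1.07 ± 0.43, SE, limma adjusted p 0.363). Dnaja1, a further J protein, also named after its values were seen, read 11.72 to 12.14 in controls and 12.39, 12.31, 12.11 and 11.72 in KO, in array order.

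Of the HSP90 co-chaperones 11 of 13 had a higher mean in KO, with a median of 0.07 (smallest limma adjusted p 0.483). The kinase co-chaperone Cdc37 differed by 0.27 ± 0.12 and its relative Cdc37l1 by -0.43 ± 0.30 (SE). Of TRiC, the cytosolic folding chamber, and prefoldin, which hands it clients, 13 of 14 were higher with a median of 0.09, led by Pfdn4 (0.46 ± 0.11, SE, limma adjusted p 0.310) and Cct4 (0.28 ± 0.12). None of these genes passed the threshold. The mean of TRiC and prefoldin, relative to controls, was 0.32 on Msi2 KO 3, the array apart on the first principal component. It was 0.01 to 0.10 on the other KO arrays and -0.02 to 0.03 on the controls.

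Of the mitochondrial chaperones and proteases 11 of 15 were higher, with a median of 0.12 (smallest limma adjusted p 0.230). Their mean, relative to controls, was 0.48 on Msi2 KO 3, 0.05 to 0.14 on the other KO arrays and -0.04 to 0.02 on the controls. Bcs1l, an assembly factor of complex III, read 7.33 to 7.95 in controls and 8.26 to 8.62 in KO (0.77 ± 0.16, SE, limma adjusted p 0.230). Htra2, a protease of the space between the membranes, read 9.43 to 9.86 and 10.08 to 10.65 (0.66 ± 0.15, SE, limma adjusted p 0.275). The groups did not overlap for either gene. Hspa9, the mitochondrial HSP70, differed by 0.04 and was named after its values were seen.

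In the endoplasmic reticulum (ER) 13 of 21 chaperone and stress genes were higher, with a median of 0.08 (smallest limma adjusted p 0.366). Hyou1, the HSP110 relative of the ER, read 9.59 to 9.99 in controls and 10.17 to 10.21 in KO, a difference of 0.37 ± 0.09 (SE). Xbp1, a factor of the unfolded protein response, differed by 0.48 ± 0.20 (SE, limma adjusted p 0.411). Hspa5, the HSP70 of the ER, differed by 0.14 and Ddit3, a late gene of ER stress, by -0.06; these 2 were named after their values were seen.

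**Figure D4:**
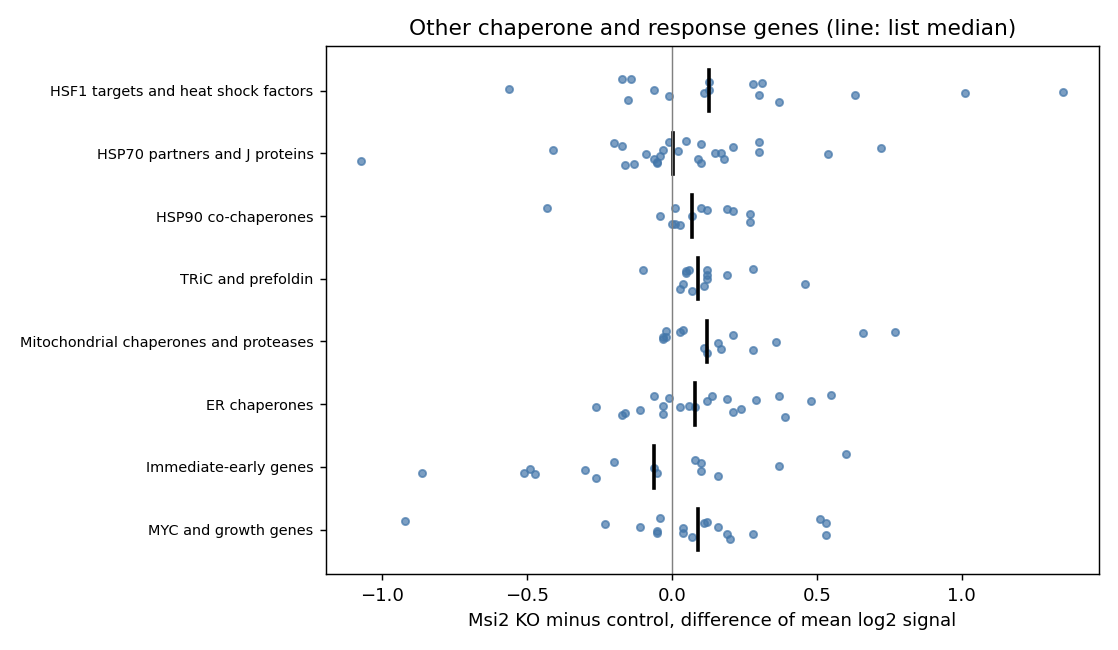
Difference of mean log2 signal, Msi2 KO minus control (x axis), of each measured gene of 6 chaperone lists, the immediate-early genes and the MYC and growth genes (points, spread vertically at random; black lines are list medians). List medians lie between -0.06 and 0.13, and 0 genes passed the adjusted threshold of limma.

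The immediate-early genes and the growth genes were examined on the same arrays. The immediate-early genes, which cells raise within minutes of handling, had 6 of 15 members higher and 9 lower in KO (median -0.06, smallest limma adjusted p 0.275), with Ier3 at -0.86 ± 0.24 and Egr1 at -0.51 ± 0.26 (SE). Relative to controls, their mean was -0.02, 0.47, -0.75 and -0.17 on the KO arrays in array order, and -0.09, 0.01, -0.21 and 0.29 on the controls. As for the HSP70 genes, control 3 was the lowest and control 4 the highest control, and Msi2 KO 1 and Msi2 KO 2 were the highest KO arrays, here with Msi2 KO 2 first and Msi2 KO 3 the lowest of all arrays. The part of handling in the differences of the HSP70 genes was not tested. The MYC and growth genes had 12 of 18 higher (median 0.09), with Mycn at -0.92 ± 0.16 and Srm, the spermidine synthase, at 0.53 ± 0.24 (SE). Their mean, on the same scale, was highest on Msi2 KO 3 (0.39), and the remaining KO arrays gave -0.10 to 0.02.

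Markers of other blood and marrow cells also differed between arrays. All 8 measured of 12 erythroid markers had a higher mean in KO (median 1.31, smallest limma adjusted p 0.287), with Hba-a1 and Alas2 at 0. Their summed signal ran from 4553 to 8635 in controls and from 7224 to 17306 in KO. Their mean log2 signal minus the control mean was highest on Msi2 KO 3 (1.97) and lowest in KO on Msi2 KO 1 (0.25). Klf1, the erythroid Krüppel-like factor, differed by 1.61 ± 0.56 and Car1, a carbonic anhydrase of red cells, by 1.37 ± 0.61 (SE).

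The 4 measured of 6 mast cell and basophil markers summed to 125 to 265 in controls and 243 to 585 in KO, with Gzmb and Cma1 at 0. Their median difference, 1.63, was the largest of the lists (smallest limma adjusted p 0.176). Fcer1a, a chain of the IgE receptor, read 3.59 to 5.05 in controls and 6.46, 6.57, 6.62 and 7.83 in KO, in array order (2.60 ± 0.44, SE). Cpa3, a mast cell protease, averaged 5.34 ± 0.68 (SD, n = 4) in controls and read 6.63, 8.20, 7.34 and 6.67 in KO (1.87 ± 0.50, SE). All KO arrays lay above all controls for both genes, which were picked after their values were seen, and neither was highest on Msi2 KO 1. The Fcer1a controls lay near or below 5, the level read here as near background. Of the measured markers 3 were higher and 1 lower in KO. For Ms4a2 (1.40) the groups overlapped, and Mcpt8 was lower (-0.50), with Msi2 KO 1 its lowest array at 4.89. These were also named after their values were seen. Of the neutrophil and monocyte markers 7 of 10 were measured (9625 to 15759 in controls, 12078 to 16180 in KO; Itgam at 0), with Lyz2, lysozyme, at -0.79 ± 0.24 and Csf1r, the receptor of macrophage growth factor, at 0.60 ± 0.52 (SE). The 3 measured of 9 lymphocyte markers summed to 1590 to 2327 and 1123 to 3007, with differences of 0.14 for Nkg7 and -0.13 for Ighm. The mean of the lymphocyte markers was highest on Msi2 KO 1 (0.29 above the control mean), through Ighm alone. On that array Nkg7 read 9.60 and Cd79b 7.50, below their control means of 9.66 and 7.82. Cd79b, named after its values were seen, differed by -0.42 between the groups. Ighm, the heavy chain of IgM, read 9.20, 10.25, 9.22 and 10.32 in controls and 11.00, 10.57, 7.61 and 9.28 in KO, in array order, so its highest arrays were those highest for the HSP70 genes. The 5 measured of 9 stromal and endothelial markers summed to 427 to 635 and 346 to 652, with Kdr, Col1a1, Cxcl12 and Lepr at 0. The 6 measured of 8 LSK markers summed to 4529 to 4881 and 3166 to 4913, and among them Flt3 differed by -0.62 ± 0.52 (SE). Flt3 read 9.40 to 9.80 in controls and 9.45, 9.85, 7.52 and 9.20 in KO, in array order. The mean of the LSK markers, relative to controls, was -0.00, 0.14, -0.85 and 0.16 on those KO arrays. The part of these cells in the differences of the chaperone genes was not tested.

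The genes whose signal was most like the mean of the set over the 8 arrays were Fam8a1 (Pearson r 0.976), Cipc (0.967), Mrps6 (0.967), Mindy3 (0.961) and Ddx39b (0.946). They were picked as the 5 highest of all genes outside the set, so these values are a description. The mean that they were compared with is carried by the HSP70 pair, whose values spread most. Fam8a1, the nearest, read 7.97 to 8.44 in controls and 8.71, 8.65, 8.33 and 8.31 in KO, in array order, with control 4 (8.44) above Msi2 KO 3 and Msi2 KO 4. Cipc, a partner of the clock protein CLOCK, read 8.49 to 8.90 in controls and 8.66 to 9.06 in KO. Their differences between the groups were 0.39 and 0.31, with limma adjusted p of 0.423 and 0.471.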

How the data were processed

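RNA of LSK cells from 4 control and 4 Msi2 KO mice was measured on 8 arrays. The authors normalized the arrays with RMA, per the submitters' processing notes, and deposited log2 signals for each probe set; no RMA version is given in the sources used here. Of 45101 probe sets, 20664 (45.8%) read exactly 0 throughout and were not used. The 64 AFFX controls were not tested, and those of actin and Gapdh were read for RNA quality alone. Gene names came from the platform annotation, updated through gene IDs to RefSeq symbols (GRCm38.p6): 34958 probe sets carried 1 name, 932 several and 9211 none in the table. A gene was represented by its brightest probe set, by the mean of the 8 arrays.

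All genes and all probe sets were compared with limma 3.58.1 in R 4.3.3 (two-sided, Benjamini-Hochberg over all tested), a procedure tested on simulated data. SE are from the 4 arrays of each group. The members and lists were chosen with earlier results of these data known, so members have no test. From each list were named genes past the threshold and the 2 with the largest absolute difference among genes at or above the median level; others named are said to be chosen after their values were seen. The paired motif and the comparisons within high or low Xist were also chosen after seeing the data. Alternatives were another normalization, filters, probe set choices, variance models, the replicate number, Xist and leaving out each array.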

Additional observations from a re-analysis of the deposited data

Results flagged for a closer look

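The highest or lowest array stood apart from the rest of its group for 2 of 36 groups of 4 arrays examined (the 18 probe sets, each in controls and in KO); chance gives about 1 in 20. Hspa1a on 1452388_at read 5.77 on control 4, with the other controls between 3.62 and 3.83. Hsp90aa1 on 1437497_a_at read 11.6 on Msi2 KO 4, with the other KO arrays between 11.97 and 11.98.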

How the results depend on the processing

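The median difference of the 8 genes (0.19) kept its direction under all 19 alternatives, between 0.16 and 0.32 (0.17 to 0.23 without 1 array). That of the 18 probe sets (0.29) lay between 0.18 and 0.52, the latter among arrays with low Xist alone (0.22 to 0.34 without 1 array). With probe sets that match several transcripts (suffixes _a, _s and _x) removed, 8 of 8 remaining probe sets were higher, no probe set of Hsph1 was left, Hspa1b went from 3.89 to 2.08, Hspe1 from 0.21 to 0.42 and Hspa8 from -0.06 to 0.24. As the mean of their probe sets Hspa8 was 0.08 and Hspa1b 2.77. Without 1 array Hspa1b lay between 3.30 (without control 3) and 4.88 (without control 4). limma passed 0 genes; this was 4 with Xist as a covariate and 0 to 1 without 1 array. It passed 0 probe sets, which became 1 with array weights, 2 with an intensity trend and robust prior, 1 with levels below the median left out, 1 with quantile normalization repeated and 0 to 1 without 1 array. The cause of these changes was not tested. With the replicate number as a block the median difference of the genes stayed at 0.19 and 0 genes passed. The numbers share no stated litter or day, and deviations of like-numbered arrays correlated at 0.137, -0.172, 0.075 and -0.021. Detection calls were not used here, which limits what can be said of the HSP70 pair in controls 1 to 3.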
